A study of Mus musculus with 8 samples.

Results

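The comparison set the 2 libraries titled Brd against the 2 libraries titled control, 4 of the 8 RNA-seq libraries of a series on MC3T3-E1, a clonal mouse line of calvarial pre-osteoblasts. The libraries were taken by their titles, and all 28901 genes of the count table were considered. The series concerns BRD9, Wnt/β-catenin signalling and the osteoblast transcription factor Sp7. The 4 libraries share the line, the labelled tissue of cranial bone and the labelled cell type of osteoblastic cells. For Brd as for control the labels give no genotype, agent, dose, medium or time. The design text of the series names the BRD9 inhibitor I-BRD9 at 10 µM, its vehicle DMSO, and a medium for osteogenic differentiation that held dexamethasone at 0.1 µM, ascorbic acid at 0.25 mM and glycerol phosphate, without tying any of them to a library. It is therefore not known from these sources what the Brd cells received, and the groups are called by their titles. The remaining libraries, NM-Brdi and NM-DMSO, entered a fit of all 8 libraries that was run as an alternative.

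Osteoblasts arise from mesenchymal progenitors under the transcription factor Runx2 and, downstream of it, Sp7 (osterix). They secrete a matrix built on type I collagen and mineralise it with the help of the alkaline phosphatase encoded by Alpl. In canonical Wnt signalling, β-catenin accumulates, binds TCF and LEF factors in the nucleus and activates target genes, some of which, such as Axin2, feed back to limit the pathway. BRD9 is the bromodomain subunit that marks the non-canonical BAF (SWI/SNF) chromatin remodelling complex, together with BICRA or BICRAL.

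Total counts ran from 16918182 to 19945266 in the 4 libraries. The unit CPM used throughout scales counts by TMM-adjusted library size. Before that adjustment 16.9 to 19.9 counts made 1 CPM, and the TMM factors ran from 0.9942 to 1.006. The libraries of a group were close. In Brd 57 genes, and in control 36 genes, were over 2-fold apart within the group, against 634 to 725 genes in the pairings of a Brd with a control library. Libraries of a group still differed by more than sampling noise, with a chi-square per gene of 2.62 in Brd and 2.05 in control, so none was taken for a library deposited more than once. Separate cultures for the libraries of a group are not stated, so p-values cover only the spread seen between 2 libraries, and that spread may be technical. An exact permutation test of 2 against 2 libraries cannot go below p = 0.333, so each call rests on the spread that edgeR pools across genes. The osteoblast lineage genes Runx2, Sp7, Ibsp and Col1a1 were well expressed in all 4 libraries. Bglap, of the same lineage, had only 1.72 and 1.89 CPM in Brd and 3.19 and 2.66 CPM in control, and Dmp1 was below the filter on low counts. The summed level of 7 endothelial markers was at most 0.462 CPM, with Tie1 and Erg at 0, and that of 9 epithelial markers at most 0.866 CPM, with Epcam, Krt18 and Cldn4 at 0. Other marker lists differed with the groups. The summed level of 8 smooth muscle markers was 1635 and 1601 CPM in Brd, against 1057 and 1107 CPM in control, and that of 14 chondrocyte markers was 353.8 and 372.5 CPM in Brd, against 619.5 and 594.5 CPM in control. Acta2 made up most of the smooth muscle sum, and the markers Des and Smtn went the other way. Hapln1 made up most of the difference in the chondrocyte sum, and the marker Col11a2 went the other way. The part of these marker lists in the results was not tested. In such bulk samples, fewer cells of a type and less RNA per cell cannot be told apart.

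Expression changed broadly between Brd and control, with about as many genes higher as lower, and the largest changes were decreases. Of 16041 genes tested with edgeR's quasi-likelihood model, 6413 (40%) were called at a Benjamini-Hochberg adjusted p under 0.05, 3195 (19.9%) higher in Brd and 3218 (20.1%) lower. Most of these changes were small, and 4559 of the called genes were under 1.5-fold apart. At least 2-fold apart and called were 822 genes (5.12%), of which 342 (2.13%) were higher and 480 (2.99%) lower. At least 4-fold apart were 65 called genes that were higher and 145 that were lower. The median log2 fold change over all tested genes was 0.0011. In 10855 of the tested genes (67.7%) the Brd and control libraries did not overlap. The count of calls depended on the libraries that supplied the spread. A fit of all 8 libraries called 1121 genes, 1115 of which are among the 6413. Of the 271 called genes named here, 172 were called in that fit, and 90 of the 99 that were not were under 2-fold apart. A test against a 1.5-fold change (glmTreat) called 816. The counts of list members given here are read against the shares of all tested genes, 19.9% higher and 20.1% lower.

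**Figure D1:**
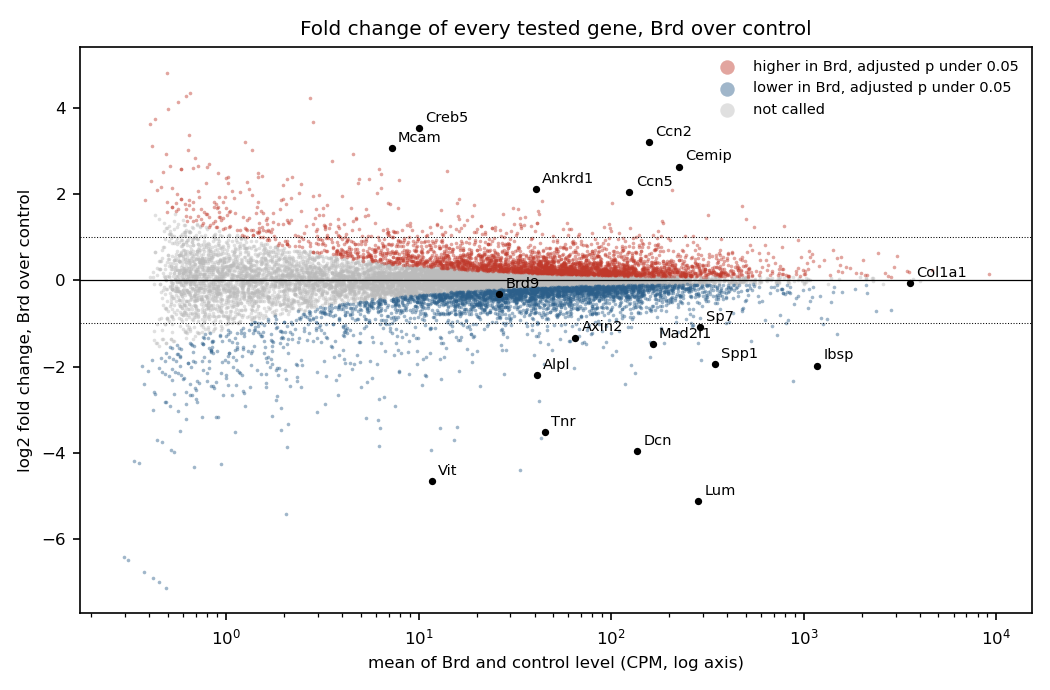
Each point is a tested gene, with its mean level in CPM on a log axis and its log2 fold change of Brd over control, and dotted lines mark 2-fold. Named genes are in black. The cloud is centred on 0, and Lum, Vit and Dcn lie lowest among the named genes while Creb5 and Ccn2 lie highest. The points below the others at the lower left have 0 counts in both Brd libraries, and their fitted folds are no bounds.

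Brd9 itself was slightly lower in Brd. The gene lies on chromosome 13 (73937811 to 73960895, plus strand, GRCm38) and had 23.3 and 23.4 CPM in Brd, against 30.1 and 28.3 CPM in control. The groups did not overlap, and the difference was -0.32 on the log2 scale (SE 0.086, edgeR adjusted p = 0.0022). The call ended without control replicate 1 (adjusted p = 0.0608) and in the fit of all 8 libraries (adjusted p = 0.13). Ctnnb1, the gene of β-catenin, had 526 and 561 CPM in Brd and 572 and 581 CPM in control. Its Brd libraries lay just below the control libraries, and the gene was not called (-0.086, SE 0.036, edgeR adjusted p = 0.0571). Without Brd replicate 2 it was called lower (adjusted p = 0.00569).

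Most osteoblast transcription factors were lower in Brd, and Sp7 was over 2-fold lower. Sp7 lies on chromosome 15 between 102356606 and 102367182 on the minus strand. Its level was 178 and 195 CPM in Brd and 400.2 and 386 CPM in control. Both Brd libraries were far below both control libraries, and the difference was -1.08 on the log2 scale (SE 0.041, edgeR adjusted p = 1.42e-23). Runx2, on chromosome 17 between 44495987 and 44814797, had 274 and 296 CPM in Brd and 448 and 454 CPM in control. Its groups did not overlap either, and it was 1.58-fold lower (edgeR adjusted p = 8.7e-18). Of 17 tested osteoblast transcription factors, out of 18 listed, 13 (76.5%) were called lower and 2 (11.8%) higher, with a median log2 fold change of -0.44, against 20.1%, 19.9% and 0.0011 over all tested genes. The lower genes included Dlx5 (-0.44), a homeobox factor of bone formation, and Alx4 (-0.67), a homeobox factor of skull development. Twist1 (-0.59), which restrains Runx2 and keeps cranial sutures open, fell with them. Prrx1 (-0.39), a marker of limb and cranial mesenchyme, was lower as well. Atf4 (0.16) and Six2 (0.23) were the higher ones. In the fit of all 8 libraries 5 of the 17 were lower and 0 were higher.

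Genes of mineralisation and of the non-collagenous bone matrix were mostly lower in Brd, with Alpl, Ibsp and Spp1 3.86-fold to 4.62-fold lower. Alpl, the tissue-nonspecific alkaline phosphatase that frees phosphate for mineral, had 13.2 and 16.2 CPM in Brd and 67.2 and 68.6 CPM in control. Both Brd libraries were low, and the gene was 4.62-fold lower (log2 -2.21, SE 0.081, edgeR adjusted p = 4.56e-24). Ibsp, bone sialoprotein, had 417 and 530.2 CPM in Brd and 1856 and 1884 CPM in control. Its Brd libraries differed from each other more than the control libraries did, but lay far below them (-1.98, SE 0.052, edgeR adjusted p = 4.99e-29). Spp1, osteopontin, had 137 and 147 CPM in Brd and 567 and 532 CPM in control. It was 3.86-fold lower with no overlap (edgeR adjusted p = 5.12e-32). Of 20 tested genes of bone matrix and mineralisation, out of 24 listed, 11 (55%) were lower and 3 (15%) higher, with a median of -0.56. With all 8 libraries in the fit 5 were lower and 0 higher. Pth1r, the receptor of parathyroid hormone, had 53.5 and 56.3 CPM in Brd and 123 and 126 CPM in control (log2 -1.18). Mgp, an inhibitor of calcification, was lower as well (-0.86), as were Postn, the matricellular protein periostin (-0.68), and Ank, a pyrophosphate exporter (-0.44). The higher members were Fam20c, the kinase of secreted bone proteins (0.47), Fn1, fibronectin (0.32), and the phosphate transporter gene Slc20a2 (0.23), whose call ended without Brd replicate 2 (edgeR adjusted p = 0.269) or control replicate 1 (0.148). Sparc, osteonectin, stood at 3998 and 4004 CPM in Brd and 3917 and 4148 CPM in control, and its groups overlapped. Bglap, osteocalcin, shares sequence with Bglap2 and Bglap3 and is uncertain. It had 1.72 and 1.89 CPM in Brd and 3.19 and 2.66 CPM in control and was not called (-0.70, edgeR adjusted p = 0.0526). Dmp1 and Sost, genes of the osteocyte, and Ifitm5 were below the filter on low counts.

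**Figure D2:**
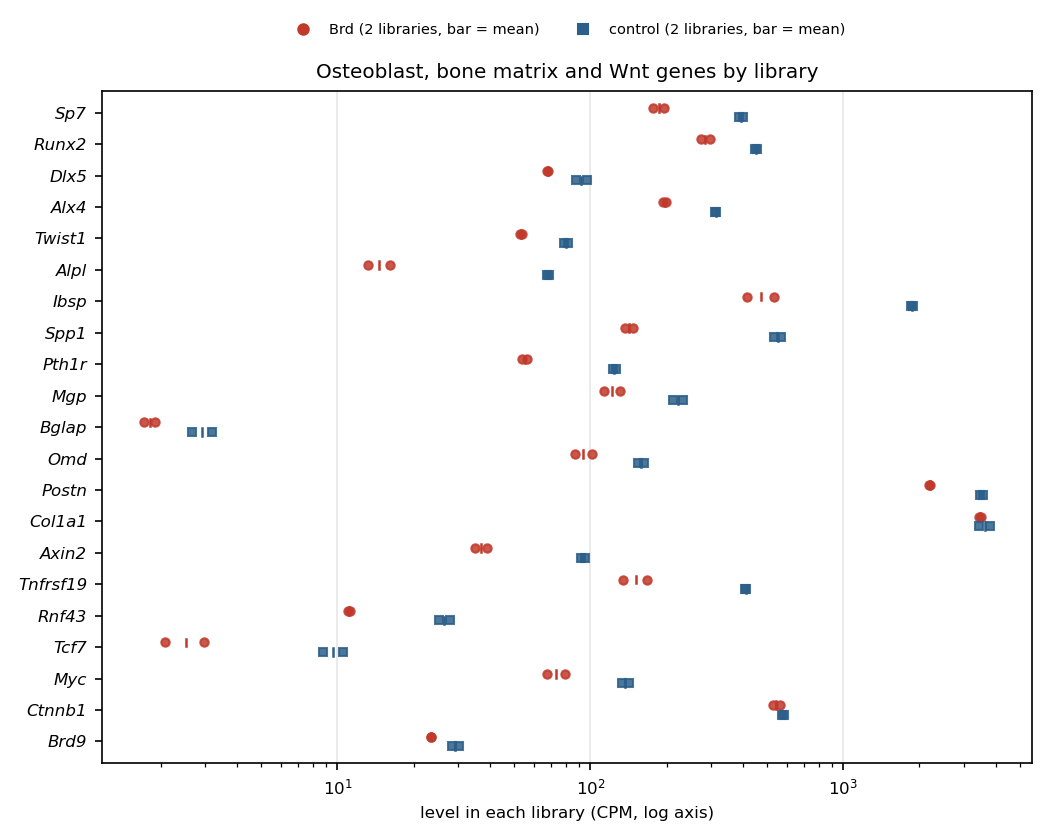
Levels in CPM, on a log axis, of osteoblast transcription factors, bone matrix genes, Wnt genes and Brd9 in each Brd and control library, with a short bar at the mean of the 2 libraries. The Brd libraries lie left of the control libraries for the genes shown, except Col1a1, whose groups overlap.

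The small leucine-rich proteoglycans, matrix proteins that bind collagen fibrils, held the largest called decrease among genes with at least 10 CPM in control. Lum (lumican), on chromosome 10 between 97565128 and 97572703, had 13.1 and 18.2 CPM in Brd and 558 and 539.6 CPM in control. It was 34.9-fold lower (log2 -5.12, SE 0.063, edgeR adjusted p = 2.18e-40). Dcn (decorin), its neighbour between 97479609 and 97518143, had 16.0 and 16.8 CPM in Brd and 254 and 259 CPM in control. It was 15.7-fold lower (SE 0.058 on the log2 scale, edgeR adjusted p = 6.57e-38). For both genes the Brd libraries lay far under the control libraries. Of 10 tested proteoglycans, out of 12 listed, 9 (90%) were lower and 0 higher, with a median of -0.71. The other decreases were smaller. Ogn (osteoglycin) had 513 and 568 CPM in Brd and 1072 and 1070.4 CPM in control (log2 -0.99), and Aspn (asporin) had 561 and 585 CPM in Brd and 1095 and 1062 CPM in control (-0.91). Omd, osteomodulin (-0.76), Prelp (-0.66) and Bgn, biglycan (-0.26), were lower too. Fmod (fibromodulin) was called with a change of -0.10, although its groups overlapped, and the call ended without Brd replicate 1 (adjusted p = 0.515) or control replicate 2 (0.323). With all 8 libraries in the fit 4 of the 10 were lower.

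Collagen genes split by type. The fibrillar partner Col3a1 and the microfibrillar type VI chains were lower in Brd, while basement membrane type IV chains, type V chains and Col12a1 were higher. Col3a1 had 415 and 446 CPM in Brd and 1003 and 1056 CPM in control. It was 2.39-fold lower with no overlap (edgeR adjusted p = 3.67e-27). Col6a1, Col6a2 and Col6a3, which assemble into type VI collagen, changed by -0.50, -0.89 and -1.01. Col4a1 and Col4a2, which sit head to head and form the main type IV collagen, rose by 0.83 and 0.59. Col4a1 had 319.7 and 318 CPM in Brd and 173 and 185 CPM in control. Of 22 tested chains, out of 26 listed, 9 were higher and 7 lower, with a median of -0.018. The fit of all 8 libraries called 5 higher and 4 lower, without Col6a3 and Col12a1 (edgeR adjusted p = 0.0699 and 0.105). Col1a1 had 3455 and 3499 CPM in Brd and 3445 and 3793 CPM in control. Its groups overlapped, and it was not called (-0.058, edgeR adjusted p = 0.192), with a log2 fold change of 0.015 without control replicate 2 and a call without control replicate 1 (-0.12, adjusted p = 0.00222). Its partner Col1a2 was slightly higher (0.24). Among genes that process collagen, 7 of 20 were higher and 7 lower, and 4 and 1 in the fit of all 8 libraries. Loxl1, a lysyl oxidase that cross-links elastin and collagen (1.29), and Plod2, which hydroxylates telopeptide lysines (1.03), rose the most. Pcolce, the enhancer of procollagen C-proteinase, fell by 0.98, whereas Bmp1, that proteinase itself, rose by 0.53.

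Other matrix genes moved in both directions. Tnr (tenascin-R), known mainly from the nervous system, had 6.70 and 7.80 CPM in Brd and 84.6 and 82.1 CPM in control. It was 11.5-fold lower with no overlap (edgeR adjusted p = 4.53e-30). Tnn (tenascin-W), a tenascin of periosteum and osteogenic cells, was lower too (-1.24). Thbs1 and Thbs2, thrombospondins that bind matrix and growth factors, rose by 0.72 and 0.48. Of 12 hyaluronan genes 6 were lower and 2 higher, and 4 to 5 were lower without 1 library (4 without control replicate 1 or 2) and 3 in the fit of all 8 libraries. Hapln1, the link protein that ties aggrecan to hyaluronan, had 35.7 and 39.4 CPM in Brd and 204 and 191 CPM in control (-2.39). Has2, the main hyaluronan synthase of mesenchymal cells, had 22.6 and 27.0 CPM in Brd and 72.0 and 66.3 CPM in control (-1.48). Cemip, which degrades hyaluronan, went the other way, at 426 and 351 CPM in Brd and 64.6 and 59.0 CPM in control. It was 6.26-fold higher (SE 0.059 on the log2 scale, edgeR adjusted p = 2.19e-31). Of 26 tested matrix proteases and inhibitors, 10 were higher and 9 lower, and 6 and 4 in the fit of all 8 libraries. The urokinase gene Plau (-1.39) was lower. Adamts6 (2.27), Mmp11 (0.91) and Mmp15 (0.91) rose, while Adamts4, an aggrecanase whose exons overlap another counted gene (-1.23), and Mmp2, gelatinase A (-0.48), fell, as did Mmp9 at low levels (-2.61). Of 22 integrin and laminin genes 7 were higher and 2 lower, and 2 and 1 in the fit of all 8 libraries. Itga10, another collagen receptor chain, was lower, with 66.7 and 68.4 CPM in Brd and 147 and 157 CPM in control (-1.17), and shares sequence with another counted gene. The largest increases among them were in Itga6, a laminin receptor chain (1.99), and Itga11, a collagen receptor chain (1.16).

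Of 13 tested target and feedback genes of Wnt/β-catenin, 7 were lower in Brd and 2 higher. Axin2, the scaffold of the β-catenin destruction complex and a standard readout of the pathway, lies on chromosome 11 (108920349 to 108950783). It had 35.0 and 39.2 CPM in Brd and 91.7 and 95.1 CPM in control. The groups were far apart (-1.33, SE 0.062, edgeR adjusted p = 6.99e-21). Tnfrsf19 (TROY), a receptor gene activated by Wnt, had 135 and 167 CPM in Brd and 409 and 414 CPM in control (-1.44). Tcf7, which encodes the factor TCF1, had 2.07 and 2.95 CPM in Brd and 10.5 and 8.78 CPM in control (-1.93). Both had Brd libraries below the control libraries. Rnf43, a ubiquitin ligase that removes Frizzled receptors, was lower (-1.25), and so were Ccnd1 (-1.2), Myc (-0.91) and Wif1, a secreted Wnt inhibitor (-0.78). The transcript of Ccnd1, cyclin D1, overlaps that of another counted gene. Znrf3, the partner of Rnf43, was higher (0.41), a call that ended without Brd replicate 2 (edgeR adjusted p = 0.13), and so was Lgr6, a receptor at under 2 CPM. The 7 and 2 called genes made 53.8% and 15.4% of those tested, out of 18 listed, with a median of -0.91. The fit of all 8 libraries called 6 lower and 1 higher. Lef1 was among the 4 not called (0.028), and Nkd1, Nkd2, Sp5, Lgr5 and Dkk1 were not tested.

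Secreted antagonists and receptors of Wnt ligands were divided, with 6 of 16 higher and 6 lower. Dkk3, a divergent member of the Dickkopf family, had 1159 and 1082 CPM in Brd and 454 and 471 CPM in control. It was 2.42-fold higher (edgeR adjusted p = 1.12e-27). Sfrp2, a secreted Frizzled-related protein that shares sequence with another counted gene, had 114 and 117 CPM in Brd and 256 and 241 CPM in control (-1.11). Dkk2 had 0 counts in both Brd libraries, against 12 and 10 counts in control. Of the receptors, Fzd9, a Frizzled receptor of osteoblasts, had 5.75 and 5.13 CPM in Brd and 17.9 and 17.0 CPM in control. It was 3.21-fold lower with no overlap (edgeR adjusted p = 1.96e-13). The alternative Wnt receptors Ror2 (-0.63) and Ror1 (-0.32) were lower. Fzd5 (0.61), Fzd4 (0.55) and the co-receptor gene Lrp6 (0.54) were higher. With all 8 libraries in the fit 1 of the 16 was higher and 4 were lower.

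Targets of the transcriptional co-activators YAP and TAZ, which respond to cell tension and density through TEAD factors, included some of the largest increases. Ccn2 (connective tissue growth factor), on chromosome 10 between 24595442 and 24598683, had 315 and 253 CPM in Brd and 33.4 and 27.5 CPM in control. It was 9.27-fold higher (log2 3.21, SE 0.073, edgeR adjusted p = 3.11e-31). Ankrd1, an ankyrin-repeat co-regulator induced by stretch, had 71.0 and 61.1 CPM in Brd and 14.8 and 15.4 CPM in control (2.13, SE 0.083, edgeR adjusted p = 2.26e-23). Ccn1 (CYR61) had 832 and 774 CPM in Brd and 449.6 and 456 CPM in control (0.83). In each of these genes the lowest Brd library was above the highest control library. Of 23 tested targets, out of 24 listed, 11 (47.8%) were higher and 2 (8.7%) lower, with a median of 0.29. Ajuba (0.58), Axl (0.43), Lats2 (0.41) and Amotl2 (0.31) rose, the last of these being feedback inhibitors in the Hippo pathway. F3, tissue factor (-0.60), and Rbms3 (-0.53) fell. The fit of all 8 libraries called 5 higher and 1 lower.

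The core of the TEAD recognition site, GGAATG, was searched on both strands in the 300 bases from 250 before to 50 after each gene start (RefSeq, GRCm38.p6). It stood in 8 of the 16 tested targets with a promoter in that table (50%), against 14.3% of tested genes and 16.6% of all promoters. It was in 14.4% of genes called at least 2-fold higher and in 19.9% of those at least 2-fold lower. The promoters of Ankrd1 (chr19:36119795-36120094, minus strand) and Ccn1 (chr3:145649936-145650235, minus strand) are shown because these genes stand among the higher targets and hold the motif. Capitals mark the motif, which starts 210 and 123 bases before the start of Ankrd1. In Ccn1 it lies on the other strand and reads CATTCC, 103 bases before the start. A match describes the letters and not a bound site.
Ankrd1: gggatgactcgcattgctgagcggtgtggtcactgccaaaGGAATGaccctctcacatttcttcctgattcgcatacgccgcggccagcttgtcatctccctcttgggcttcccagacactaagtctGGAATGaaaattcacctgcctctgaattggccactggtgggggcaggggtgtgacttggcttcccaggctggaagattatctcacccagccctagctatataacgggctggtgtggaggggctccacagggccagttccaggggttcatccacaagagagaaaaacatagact
Ccn1: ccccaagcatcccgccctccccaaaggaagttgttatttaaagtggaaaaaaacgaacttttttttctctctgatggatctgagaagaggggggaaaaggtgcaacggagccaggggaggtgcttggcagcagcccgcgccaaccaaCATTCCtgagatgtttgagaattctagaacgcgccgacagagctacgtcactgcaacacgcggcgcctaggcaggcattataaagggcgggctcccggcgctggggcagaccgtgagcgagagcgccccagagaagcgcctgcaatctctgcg

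The CCN family was not uniform. Ccn5 (WISP2) was 4.13-fold higher, with 211 and 189.6 CPM in Brd and 48.0 and 49.1 CPM in control (edgeR adjusted p = 2.59e-29). Ccn3 (NOV) was 3.81-fold lower, with 18.3 and 18.9 CPM in Brd and 72.6 and 69.2 CPM in control (edgeR adjusted p = 1.16e-23). Ccn4 had 119.7 and 111 CPM in Brd and 119.9 and 109 CPM in control, and its groups overlapped. Of the 14 tested CCN, tenascin and thrombospondin genes, 5 were higher and 7 lower.

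Most genes of the actin cytoskeleton and contractile apparatus were higher in Brd. Of 22 tested, 17 (77.3%) were higher and 1 (4.55%) lower, with a median of 0.53. Acta2, smooth muscle actin and a marker of contractile fibroblasts, had 1349.9 and 1308 CPM in Brd and 852 and 890.2 CPM in control. The groups did not overlap (0.61, SE 0.034, edgeR adjusted p = 3.94e-18, and 0.0761 in the fit of all 8 libraries). Tpm2, a tropomyosin, had 154 and 144 CPM in Brd and 68.0 and 71.6 CPM in control (1.09). Cald1, caldesmon (0.65), Myh9, non-muscle myosin (0.55), Flna, filamin A (0.54), and Zyx, zyxin of focal adhesions (0.79), rose as well. Srf (0.39) and its co-activators Mrtfa (0.79) and Mrtfb (0.47), which control many of these genes, were higher. Tagln (1.2), which overlaps other counted genes, and Cnn1, calponin (1.35), rose at low levels. Tagln2 was the lower member (-0.51). The fit of all 8 libraries called 8 higher and 1 lower, and the test against a 1.5-fold change 4 and 0. Of 7 tested smooth muscle markers, some of which are in the actin list too, 5 were higher and 2, Des (-1.55) and Smtn (-0.30), lower.

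Of BMP and TGF-β genes, 13 of 29 tested genes (44.8%) were higher and 4 (13.8%) lower, with a median of 0.16. The ligands Tgfb2 (0.62) and Tgfb3 (0.63) were higher. Tgfb1 was called too (0.19), but not without Brd replicate 1 (edgeR adjusted p = 0.413), control replicate 1 (0.0555) or control replicate 2 (0.142). Tgfb3 had 194 and 198 CPM in Brd and 127 and 127 CPM in control. Ltbp2, of the latent TGF-β binding protein family, rose by 1.05, and the feedback inhibitors Skil and Smad7 by 0.72 and 0.48. Id1, a direct target of BMP signalling, was lower, with 14.8 and 14.6 CPM in Brd and 26.9 and 25.8 CPM in control (-0.84, edgeR adjusted p = 2.33e-09). Id4 was lower too (-0.24), while Bmp4 was not called (-0.069). The receptor genes Tgfbr1 and Bmpr2 were higher by 0.20 and 0.16. With all 8 libraries in the fit 5 of the 29 were higher and 1 lower.

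Immediate early genes, the transcripts that growth factors and stress induce within minutes, were mostly higher in Brd. Of 24 tested, 16 (66.7%) were higher and 2 (8.33%) lower, with a median of 0.68. Jun, a subunit of the AP-1 factor, had 113 and 103 CPM in Brd and 54.1 and 46.8 CPM in control. Jund had 52.9 and 47.4 CPM in Brd and 16.2 and 15.4 CPM in control. Both rose without overlap, Jun by 1.09 and Jund by 1.66 (edgeR adjusted p = 1.9e-18 and 1.26e-19). The ERK phosphatases Dusp5 (1.22) and Dusp6 (0.96), and Ier3 (1.09), Ier2 (0.87) and Egr1 (0.81), rose too. Atf3, a stress-induced factor, had 2.67 and 2.23 CPM in Brd and 0.200 and 0.751 CPM in control (2.40). Its log2 fold change was 1.70 without control replicate 1 and 3.57 without control replicate 2, and the call ended in the fit of all 8 libraries (edgeR adjusted p = 0.0601). Fosl1 (FRA-1), whose exons overlap Ccdc85b, was lower at 0.474 and 0.669 CPM in Brd and 2.44 and 2.83 CPM in control (-2.18), and Myc was the other lower member. Fosb (0.13) and Nr4a1 (0.31) were not called. The AP-1 site TGACTCA, searched on both strands, was in 0 of 19 promoters of this list, against 4.37% of tested genes and 5.95% of all promoters. The fit of all 8 libraries called 7 of the 24 higher and 2 lower.

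Genes of mitosis were lower in Brd without exception among the 38 tested. All 38 had a negative fold change and were called, against 20.1% of all tested genes called lower, with a median of -0.64. Mad2l1, a spindle checkpoint protein, had 83.6 and 90.6 CPM in Brd and 245 and 238 CPM in control. It fell by 1.47 on the log2 scale (SE 0.046, edgeR adjusted p = 1.15e-26). Plk1, the polo-like kinase of mitotic entry, had 19.7 and 19.9 CPM in Brd and 41.0 and 39.7 CPM in control. It fell by 1.03 (SE 0.082, edgeR adjusted p = 1.36e-13). Aurka, the centrosomal Aurora kinase, had 22.3 and 26.4 CPM in Brd and 47.1 and 49.1 CPM in control (-0.98). Cdc20, the activator of the anaphase-promoting complex, overlaps Elovl1 and had 23.7 and 23.7 CPM in Brd and 47.2 and 51.2 CPM in control (-1.05). For these 4 genes every Brd library lay far below both control libraries. Mki67, the proliferation antigen Ki-67 (-0.63), Top2a, topoisomerase II (-0.46), and Cdk1 (-0.58) fell less. The smallest decreases were those of Bub3 (-0.33) and Ccnb2 (-0.37), and the call of Ccnb2 ended without control replicate 2 (edgeR adjusted p = 0.0511). In the fit of all 8 libraries 22 of the 38 were called lower, and 12 against a 1.5-fold change.

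Many mitotic genes carry the cell cycle genes homology region, an element with the core TTTGAA through which the DREAM complex acts in resting cells. This core, searched on both strands, stood in 24 of the 32 mitosis genes with a promoter in the table (75.0%), against 14.4% of tested genes and 20.2% of all promoters. It was in 16.7% of DNA replication genes, in 22.0% of genes called at least 2-fold lower and in 11.6% of those at least 2-fold higher. The promoters of Plk1, Cdc20 and Aurka, with large decreases, and of Ccnb2, with one of the smallest, are shown with the core in capitals. They are chr7:122159185-122159484 (plus strand) for Plk1, chr4:118437294-118437593 (minus strand) for Cdc20, chr2:172370521-172370820 (minus strand) for Aurka and chr9:70421505-70421804 (minus strand) for Ccnb2. The core starts 31 bases after the start of Plk1 and 33 after that of Aurka, 18 before that of Cdc20, and 167 before and 5 after that of Ccnb2. Genes with the core thus included strong and weak decreases.
Plk1: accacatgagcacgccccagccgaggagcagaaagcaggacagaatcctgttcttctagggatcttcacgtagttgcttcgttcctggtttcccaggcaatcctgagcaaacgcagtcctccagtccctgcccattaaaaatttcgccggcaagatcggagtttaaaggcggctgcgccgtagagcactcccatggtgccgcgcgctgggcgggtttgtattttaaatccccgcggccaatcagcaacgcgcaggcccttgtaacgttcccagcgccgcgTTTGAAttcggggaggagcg
Cdc20: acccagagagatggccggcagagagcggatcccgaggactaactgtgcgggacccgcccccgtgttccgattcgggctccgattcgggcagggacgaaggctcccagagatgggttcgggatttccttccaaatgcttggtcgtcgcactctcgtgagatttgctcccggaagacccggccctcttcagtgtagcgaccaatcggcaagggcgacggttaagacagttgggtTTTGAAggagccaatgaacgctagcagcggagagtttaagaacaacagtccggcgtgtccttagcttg
Aurka: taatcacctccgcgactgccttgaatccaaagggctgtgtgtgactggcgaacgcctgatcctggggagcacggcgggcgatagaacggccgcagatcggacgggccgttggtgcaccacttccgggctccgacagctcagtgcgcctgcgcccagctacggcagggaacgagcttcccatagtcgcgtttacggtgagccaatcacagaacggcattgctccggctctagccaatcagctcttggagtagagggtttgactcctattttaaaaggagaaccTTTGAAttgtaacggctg
Ccnb2: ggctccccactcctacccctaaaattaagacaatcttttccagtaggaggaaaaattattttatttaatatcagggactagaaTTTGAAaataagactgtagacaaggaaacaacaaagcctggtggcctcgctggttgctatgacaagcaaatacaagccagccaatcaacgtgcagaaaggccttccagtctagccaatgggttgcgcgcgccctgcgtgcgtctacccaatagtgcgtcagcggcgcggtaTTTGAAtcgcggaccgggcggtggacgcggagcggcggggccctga

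DNA replication genes were lower too, by less. Of 37 tested, 27 (73%) were called lower and 0 higher, with a median of -0.40. Tk1, thymidine kinase, had 29.2 and 26.6 CPM in Brd and 54.3 and 54.6 CPM in control. It fell by 0.97 (SE 0.072, edgeR adjusted p = 1.79e-14). Cdt1, a licensing factor, had 18.0 and 17.9 CPM in Brd and 29.8 and 28.1 CPM in control (-0.69). Neither gene overlapped between groups. The genes of the MCM helicase, Mcm2 to Mcm7, fell by 0.28 (Mcm7) to 0.67 (Mcm5), and the call of Mcm7 was kept without Brd replicate 1 and ended without each of the other libraries (edgeR adjusted p = 0.0855 to 0.363). Mcm7 also overlaps other counted genes and shares sequence with a further one. Ccne1 (-0.089), E2f1 (-0.052) and Rrm1 (-0.042) were not called. In the fit of all 8 libraries 8 of the 37 were lower.

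**Figure D3:**
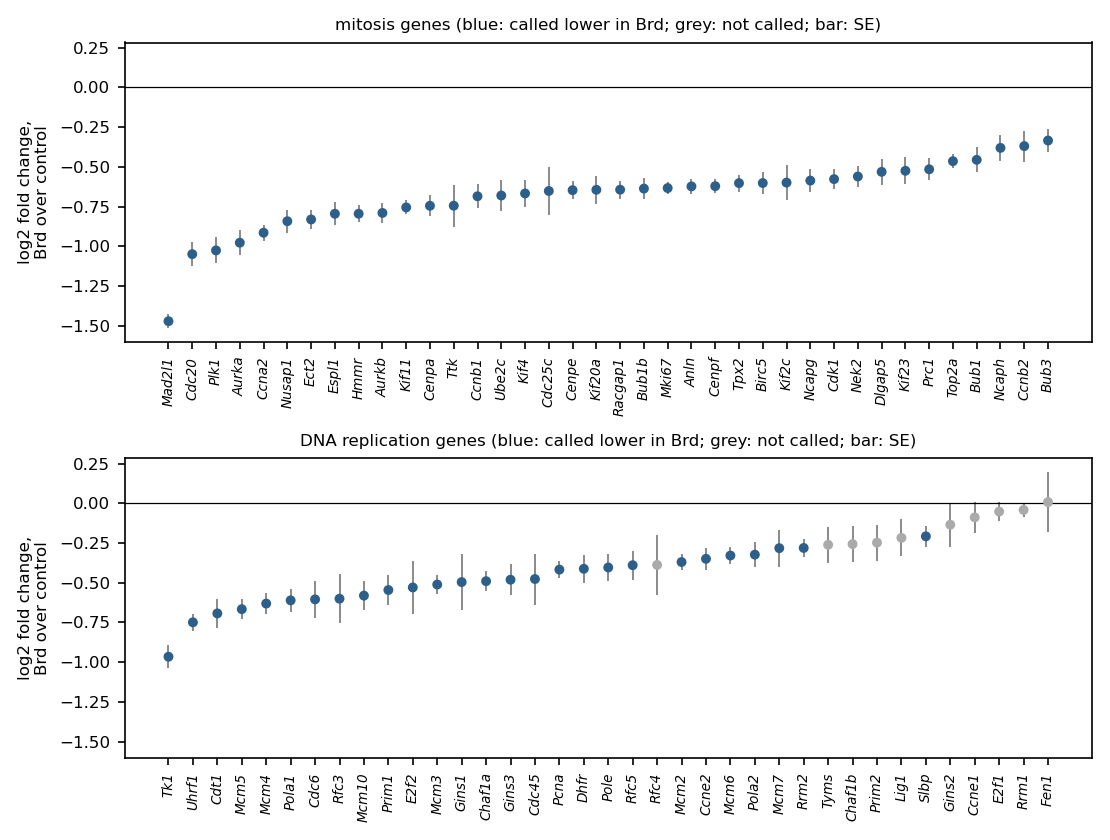
Log2 fold change of Brd over control, with its SE as a bar, for the 38 mitosis genes (upper panel) and the 37 DNA replication genes (lower panel), ordered by size. Blue points are called lower and grey points are not called. Mitosis genes lie below 0 throughout, from Mad2l1 to Bub3, and replication genes run up to 0.

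Of 4 tested inhibitors of cyclin-dependent kinases, 3 were lower and 0 higher. Cdkn1a (p21) had 324 and 326 CPM in Brd and 410.2 and 416 CPM in control, lower with no overlap (-0.35, edgeR adjusted p = 1.6e-10, and 0.0721 in the fit of all 8 libraries). Cdkn2c (-0.59) and Cdkn2d (-0.50) fell, and Cdkn1b (p27) was not called (0.0058). Of 20 tested genes of this list, which includes p53 targets, 4 were higher and 7 lower, and 2 and 1 in the fit of all 8 libraries. The higher ones included Gdf15, a stress-induced cytokine (1.17), and Btg2, an antiproliferative gene (0.90). Of 8 tested replication-dependent histone genes, out of 14 listed, 4 were higher and 0 lower, with 2 higher without control replicate 2 and in the fit of all 8 libraries. H2bc4 had 48.1 and 41.4 CPM in Brd and 19.6 and 16.5 CPM in control (1.30, edgeR adjusted p = 1.63e-15). H1f2 had 48.9 and 48.2 CPM in Brd and 31.4 and 29.6 CPM in control (0.67). Transcripts of these genes lack poly(A) tails as a rule, and the labels describe the libraries as poly(A)-enriched/ribo-depleted without saying which.

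Several growth factor genes rose in Brd. Receptor genes for FGF and PDGF were lower, mostly by small amounts. Bdnf, a neurotrophin, had 29.3 and 21.5 CPM in Brd and 6.14 and 7.68 CPM in control. It was 3.69-fold higher (edgeR adjusted p = 5.84e-15). Fgf7, keratinocyte growth factor, had 243 and 218 CPM in Brd and 120.2 and 111 CPM in control (0.99). Hbegf (1.14), Nrg1 (1.04) and Kitl, stem cell factor (0.83), rose without overlap. Gdnf, a ligand of the RET receptor complex, had 11.0 and 10.5 CPM in Brd and 2.79 and 3.35 CPM in control (1.81). Fgfr3 had 291 and 350.0 CPM in Brd and 538 and 539 CPM in control (-0.75). Fgfr1 (-0.24), Fgfr2 (-0.20) and Pdgfra (-0.22) fell by less, and these 3 were not called in the fit of all 8 libraries. The ligand genes Fgf2, which overlaps Nudt6 (-0.98), Pdgfc (-0.43) and Pdgfa (-0.39) fell too. Met, the receptor of hepatocyte growth factor (1.12), and the feedback inhibitor Spry1 (2.04) rose. Of 25 tested genes, out of 37 listed, 11 were higher and 11 lower, and 7 and 2 in the fit of all 8 libraries. The 8 that changed at least 2-fold were all higher.

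Insulin-like growth factor genes were divided. Igf1 itself had 988 and 974 CPM in Brd and 605 and 534 CPM in control (0.78, edgeR adjusted p = 1.46e-19). The adaptor Irs2 (1.08), the receptors Igf1r (0.32) and Igf2r (0.55), and Igfbp4 (0.93) with Pappa (0.58), the protease that cleaves it, were higher. Igfbp5, a binding protein abundant in bone, had 22.0 and 26.4 CPM in Brd and 75.9 and 72.8 CPM in control (-1.62), and Igfbp2 was lower too (-2.32). The imprinted non-coding RNA H19 had 0.593 and 1.505 CPM in Brd and 10.6 and 12.5 CPM in control (-3.43). Its Brd libraries differed from each other, and both lay far under control. The log2 fold change was -2.93 without Brd replicate 1 and -4.26 without Brd replicate 2. Of the 13 tested genes 6 were higher and 5 lower, and 4 and 3 in the fit of all 8 libraries.

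Guidance molecules and their receptors were also divided. Sema3a, a semaphorin that protects bone and guides axons, had 83.7 and 88.8 CPM in Brd and 234 and 228 CPM in control. It fell by 1.42 (SE 0.045, edgeR adjusted p = 2.44e-26). Sema3c had 12.3 and 9.14 CPM in Brd and 1.95 and 1.56 CPM in control, and Sema3f had 9.13 and 11.8 CPM in Brd and 2.74 and 1.91 CPM in control. These secreted relatives rose by 2.60 and 2.16. Plxnb1, a plexin that binds semaphorins, had 28.1 and 29.5 CPM in Brd and 64.7 and 64.0 CPM in control (-1.16). The neuropilin receptors Nrp2 (-0.81) and Nrp1 (-0.30) were lower. Of 22 tested genes 9 were higher and 7 lower. The higher ones were 6 to 7 without 1 library (6 without Brd replicate 2 or control replicate 2), and the fit of all 8 libraries called 3 each way. Among osteoclast-coupling factors, Tnfrsf11b (osteoprotegerin), the decoy receptor for RANKL, had 34.7 and 32.3 CPM in Brd and 87.5 and 91.4 CPM in control (-1.42, edgeR adjusted p = 1.29e-21). Of 8 listed factors 7 were matched to the count table, and 0 of these were below the filter. Tnfsf11, the gene of RANKL, was not among the 7 tested, of which 3 were higher and 2 lower.

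Of 16 tested Hedgehog and Notch genes 6 were higher and 4 lower, and 1 each in the fit of all 8 libraries. The increases included Jag1, a Notch ligand, with 52.3 and 52.6 CPM in Brd and 18.3 and 19.2 CPM in control. It was 2.80-fold higher (edgeR adjusted p = 3.91e-19). Notch3 rose too (0.62). Gli1, the standard target of Hedgehog signalling, fell (-0.71). Gas1, a Hedgehog co-receptor, had 170.1 and 171 CPM in Brd and 369 and 340.4 CPM in control (-1.06), while the co-receptors Cdon (0.60) and Boc (0.41) rose.

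Sterol synthesis genes were lower by small amounts. Of 23 tested, out of 24 listed, 19 (82.6%) were lower and 1 (4.35%) higher, with a median of -0.36. Stard4, a cholesterol transfer protein, had 103 and 105 CPM in Brd and 174 and 171 CPM in control (-0.73, edgeR adjusted p = 5.13e-17, and 0.0511 in the fit of all 8 libraries). Msmo1 (-0.51), Hmgcs1 (-0.34) and Sqle (-0.26) fell, and Dhcr7 rose (0.24), though not without Brd replicate 2 (edgeR adjusted p = 0.0577) or control replicate 1 (0.215). In the fit of all 8 libraries 3 of these genes were lower and 0 higher. Of 26 fatty acid and lipid genes 12 were higher and 9 lower, and 3 and 2 in the fit of all 8 libraries. Cpt1a, which brings long-chain fatty acids to mitochondrial oxidation, had 82.7 and 79.0 CPM in Brd and 41.3 and 36.5 CPM in control (1.05). The elongase Elovl7 had 25.1 and 22.9 CPM in Brd and 4.69 and 3.47 CPM in control (2.54). Both rose without overlap, while the desaturase genes Scd1 (-0.36) and Fads2 (-0.34) fell.

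Detoxification genes were mostly lower. Of 7 tested genes of the aryl hydrocarbon receptor, out of 8 listed, 5 were lower and 2 higher (1 without Brd replicate 2 or either control library). Cyp1b1, a cytochrome induced by this receptor, had 107 and 115 CPM in Brd and 251 and 261 CPM in control (-1.21, edgeR adjusted p = 2.55e-24). Aldh3a1 had 1.42 and 1.62 CPM in Brd and 7.83 and 9.24 CPM in control (-2.48). The receptor gene Ahr was itself lower (-0.51), and its partner Arnt was higher (0.23). Of 19 targets of NRF2, the factor that answers oxidative stress, 10 were lower and 3 higher, with a median of -0.13. Osgin1 (-1.38), Gclm, a subunit of the enzyme that starts glutathione synthesis (-0.67), Gsr, glutathione reductase (-0.63), and Nqo1 (-0.52) fell. The fit of all 8 libraries called 2 of them lower.

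Hypoxia and glycolysis genes were more often higher, with 13 of 28 (46.4%) called higher and 3 (10.7%) lower, and 6 and 0 in the fit of all 8 libraries. Ndrg1, a gene induced by low oxygen, had 24.9 and 23.5 CPM in Brd and 12.4 and 11.9 CPM in control (0.99, edgeR adjusted p = 2.24e-10). Egln3 (1.01), Ero1l (0.75), Pfkfb3 (0.67), Pdk1 (0.50) and Vegfa (0.32) rose. Car9, at 3.67 and 6.02 CPM in Brd and 1.55 and 1.44 CPM in control (1.69), overlaps another counted gene. Hk1, a hexokinase (-0.066), was not called. Several glycolysis genes share sequence with other counted genes and are uncertain. Nuclear genes of oxidative phosphorylation were mostly not called, with 2 of 35, Cycs (-0.39) and Sdhd (-0.18), lower and 0 higher. Cycs shares sequence with other counted genes. The call of Sdhd ended without Brd replicate 1 (edgeR adjusted p = 0.0963) or control replicate 1 (0.225), and the fit of all 8 libraries called 0 (0 at an unadjusted p under 0.05).

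Dexamethasone, a glucocorticoid, is part of the osteogenic medium of the series. Of 16 tested glucocorticoid targets, out of 18 listed, 9 (56.2%) were lower and 3 (18.8%) higher, with a median of -0.20. Zbtb16 (PLZF), strongly induced by glucocorticoids, had 10.3 and 13.4 CPM in Brd and 23.9 and 25.6 CPM in control (-1.06, edgeR adjusted p = 2.2e-10, and 0.0555 in the fit of all 8 libraries). Fkbp5 was slightly lower (-0.17), Tsc22d3 was not called (-0.081, but called without Brd replicate 2, adjusted p = 0.000456), and Sgk1 was higher, with 480.1 and 461 CPM in Brd and 332 and 318 CPM in control (0.53). Members thus moved in both directions, and 2 were called lower and 1 higher in the fit of all 8 libraries.

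Among subunits of the BAF complexes, changes were under 2-fold. Of 28 tested, out of 31 listed, 6 (21.4%) were higher and 8 (28.6%) lower, near the 19.9% and 20.1% of all tested genes, with a median of 0.009. The higher ones were 3 without control replicate 1. Brd9 was one of the lower genes, along with Bcl7a (-0.52), Smarcd2 (-0.42) and Ss18 (-0.21), all under 1.5-fold apart. Bicra (0.26) and Bicral (0.23), which encode the partners of BRD9 in the non-canonical complex, were higher, as was the ATPase gene Smarca4, BRG1 (0.30). The call of Bicra ended without Brd replicate 2 (edgeR adjusted p = 0.164), control replicate 1 (0.0504) or control replicate 2 (0.165), and that of Bicral without control replicate 1 (0.0516). With all 8 libraries in the fit 1 of the 28 was called lower and 0 higher. The closest bromodomain relative, Brd7, a subunit of the polybromo-associated complex, was lower (-0.27), a call that ended without control replicate 2 (edgeR adjusted p = 0.0518). A list of genes of BET and other bromodomain proteins also held Hexim1. Of its 27 tested genes, 11 (40.7%) were higher and 9 (33.3%) lower, against 19.9% and 20.1% of all tested genes. The fit of all 8 libraries called 1 of them higher, Hexim1 (edgeR adjusted p = 0.00971), and 0 lower. Hexim1, which inhibits the elongation factor P-TEFb and is known to rise when BET proteins are inhibited, had 129 and 125 CPM in Brd and 78.8 and 79.3 CPM in control. It rose by 0.68 (SE 0.049, edgeR adjusted p = 4.89e-15). The BET gene Brd2 was slightly higher (0.27), and Brd3 was not called (-0.041).

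Several genes with the largest called changes at 10 CPM or more had no part in the groups above. Creb5, which encodes a CREB-type transcription factor, had 20.03 and 16.8 CPM in Brd and 1.497 and 1.67 CPM in control. It was 11.6-fold higher (log2 3.53, SE 0.18, edgeR adjusted p = 1.33e-19). Mcam (CD146), an adhesion molecule of pericytes and stromal progenitors, had 15.3 and 10.6 CPM in Brd and 1.80 and 1.21 CPM in control (3.08). Filip1l had 74.0 and 62.1 CPM in Brd and 19.1 and 18.8 CPM in control (1.84). In all 3 the lowest Brd library was several times the highest control library. Slc45a3 (2.33), a sugar transporter gene, and Sort1, sortilin (2.48), were further higher genes of this kind. On the lower side, Vit (vitrin), a matrix protein, had 0.889 and 0.892 CPM in Brd and 23.0 and 22.2 CPM in control. It was 25.2-fold lower (SE 0.19 on the log2 scale, edgeR adjusted p = 4.65e-23). Hp, haptoglobin, had 6.40 and 6.35 CPM in Brd and 80.5 and 80.1 CPM in control (-3.65). Trp63, the p53 relative best known from epithelia, had 8.89 and 12.2 CPM in Brd and 71.2 and 77.3 CPM in control (-2.81). Each of these 3 genes was low in both Brd libraries. Astn1 (-3.94), Ikzf4, an Ikaros family factor (-3.85), Mettl21e (-3.70), Ecrg4 (-3.44) and Gdpd2 (-3.40) were lower as well. Ikzf4 was at -5.10 without Brd replicate 1 and -3.16 without Brd replicate 2. Ndnf (-3.23, from -4.21 without Brd replicate 2 to -2.68 without Brd replicate 1), Ly6a, the stem cell antigen Sca-1 (-2.93), and the glutamate transporter gene Slc1a2 (-2.76) were lower by less.

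**Figure D4:**
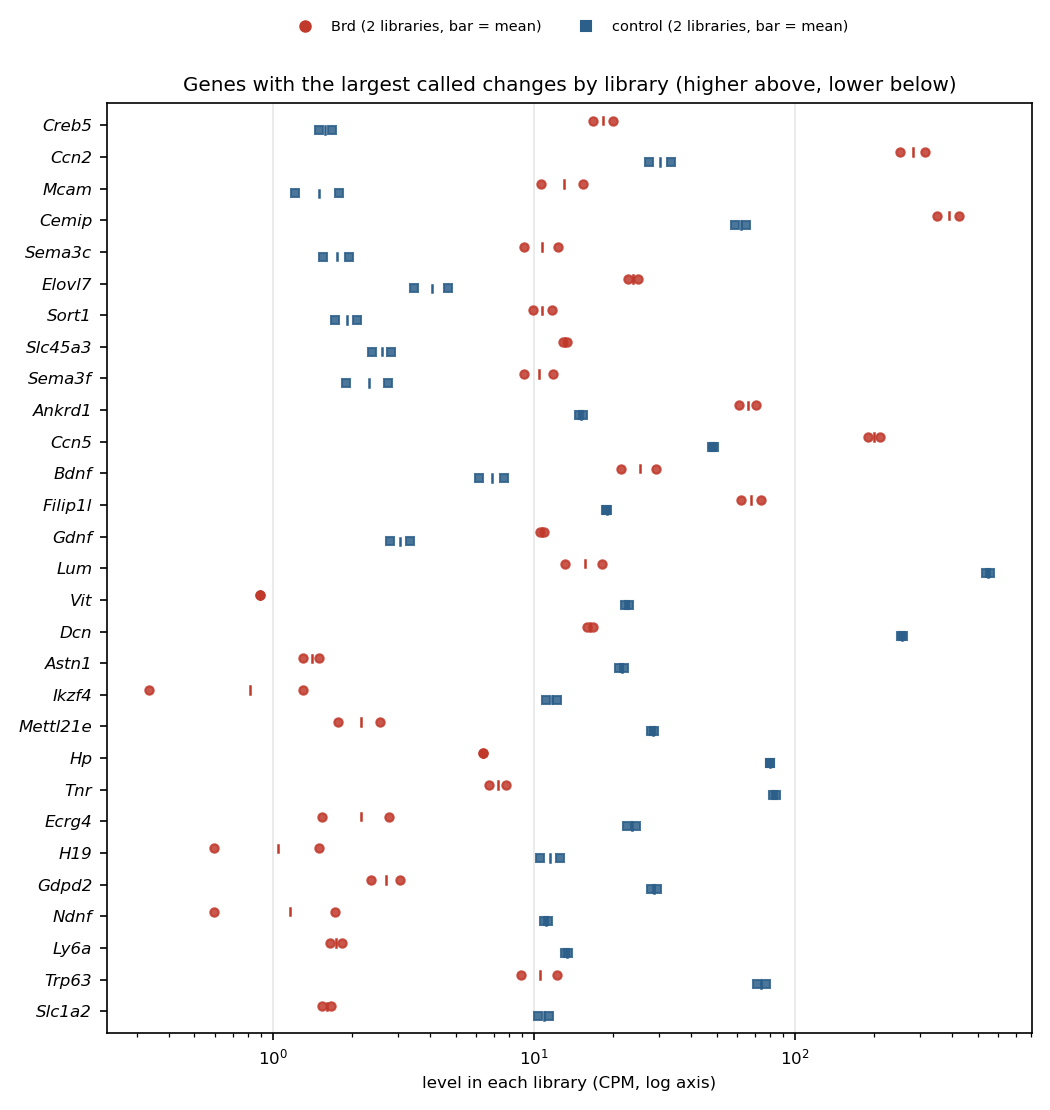
Levels in CPM, on a log axis, of higher and lower genes with the largest called change among those that reach 10 CPM in their higher group and do not overlap. Brd libraries lie right of control libraries in the upper genes, led by Creb5 and Ccn2, and left of them in the lower genes, led by Lum.

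A few genes were present in one group at 1 CPM or more and had at most 3 counts summed over the other. Present in Brd were Fam89a, Lgr6 and Mmp24. Lgr6, a receptor for R-spondins that amplify Wnt signals, had 19 and 22 counts in Brd, against 0 and 2 counts in control, a 22-fold ratio (95% counting interval 5.71 to 188). Fam89a had 21 and 22 counts in Brd, against 0 and 2 in control. Mmp24 overlaps another counted gene. Present in control were Fat3, Btnl4, Pax8, which overlaps another counted gene, Cmklr1 and Kcnk10. Fat3, an atypical cadherin, had 0 and 3 counts in Brd, against 77 and 72 counts in control, a 46.3-fold ratio (15.5 to 227). Cmklr1, the chemerin receptor, had 1 and 2 counts in Brd, against 15 and 24 counts in control, a 12.1-fold ratio (3.85 to 61.3), and was not called without control replicate 2 (edgeR adjusted p = 0.0543). These intervals cover counting error only.

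**Figure D5:**
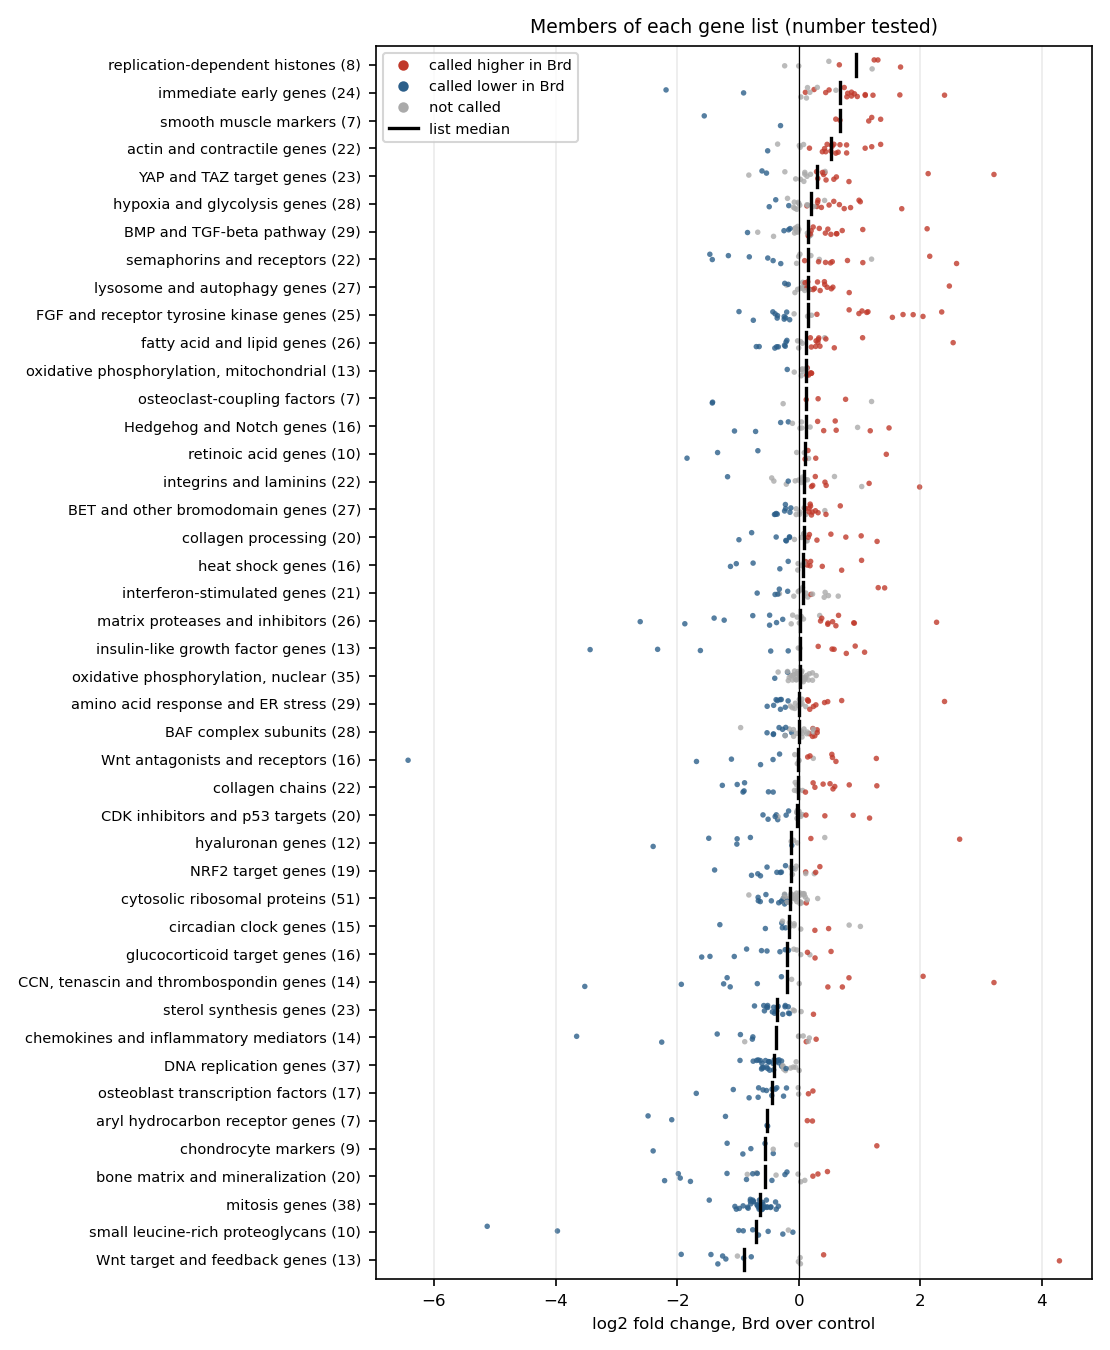
Log2 fold change of Brd over control for each tested member of the lists with at least 7 tested members, coloured by call, with a black bar at the list median. Histone, immediate early and actin lists have medians of 0.94, 0.68 and 0.53, while the mitosis, proteoglycan and Wnt target lists have medians of -0.64, -0.71 and -0.91. The leftmost point is Dkk2, which had 0 counts in Brd, so its fitted fold is no bound.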

How the data were processed

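The deposited values are counts of reads per gene, not normalised, in 1 table of whole numbers that the authors made. The tools named in the submitters' processing notes are STAR 2.7.10a, featureCounts 2.0.3, Trimmomatic 0.39 and FastQC 0.11.9, and the builds named there are GRCh38 and GRCm38. Not given in the sources used here are annotation release, strand setting and handling of multi-mapping reads. Symbols are mouse symbols, and positions come from GENCODE M21 (GRCm38), which held 96.9% of them.

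Groups were taken from sample titles. Genes were kept with filterByExpr of edgeR 4.0.16 (R 4.3.3), scaled with TMM factors and fitted with the quasi-likelihood model in a fit of the 4 libraries with no covariate. P-values were adjusted over the 16041 tested genes (Benjamini-Hochberg), and called means an adjusted p under 0.05. SE is an approximate standard error of the log2 fold change. It was derived from the test, as the fold change without its sign over the square root of the quasi-likelihood F statistic. Counts with known changes were simulated from the same model with the spread fitted here. The fit recovered 78.9% of 57 genes changed 1.5-fold, 90.5% of 63 changed 2-fold and 98.7% of 76 changed 4-fold. Of its calls 6.35% were unchanged genes. The simulation held 15607 unchanged genes among those tested, so far fewer genes changed than the 40% called here. Its rates therefore do not carry over to the 6413 calls. Such a simulation takes the fitted spread as given, so it cannot show whether that spread is technical.

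The members and the 50 gene lists were chosen with earlier results of these data known, so lists are described by counts and medians with no test. Of 1052 listed genes 41 were not matched to the table, 131 were below the filter and 880 were tested. Named genes are 10 of osteoblast and BRD9 interest, the 15 genes each way with the largest called changes at 10 CPM or more without overlap, up to 4 called members of each list with at least 2 CPM in the higher group, further listed members by role, and genes at 1 CPM or more in 1 group with at most 3 counts summed over the other. Among the largest changes, names of clones and predicted genes were skipped. A few genes that the rule names are not reported here. Marked uncertain were 185 of 903 checked genes. They align with a copy over at least 200 nt at 95% identity (BLAST+ 2.17.0) and 10% of the transcript, the copy having at least 1% of the gene's counts, or share at least 50 nt of exon with a gene (bedtools 2.31.1) that has at least 5% of its counts. Alternatives were other size factors, filters and thresholds, DESeq2 1.42.0, limma 3.58.1 voom, glmTreat, a fit of all 8 libraries, a replicate block and leaving out each library. Promoters are RefSeq sequences, and 9953 of the tested genes had one.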

Additional observations from a re-analysis of the deposited data

How the results depend on the processing

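The count of 6413 called genes was 6225 to 6429 with other size factors, without a filter and with voom, 4879 at an adjusted p under 0.01 and 4812 to 5593 without 1 library, where the lone library is assumed to vary like the other group. With the replicate block it was 6486, but same-numbered libraries share only a number and were not taken as pairs (correlation of their deviations 0.019). DESeq2 called 4276 genes, 2137 of them lower. The fit of all 8 libraries, which shares the spread with NM-Brdi and NM-DMSO, called 1121 (533 higher, 588 lower), with 473 at least 2-fold apart (196 higher, 277 lower). Against a 1.5-fold change glmTreat called 816 (353 higher, 463 lower), of which 219 were at least 2-fold higher. A minimum of 10 CPM in 2 libraries left 275 genes called and at least 2-fold apart (110 higher, 165 lower), since fewer genes were tested. The share of calls that were higher was 49.82%, and 43.26% under glmTreat. Of 271 called genes named in the text 132 were called under every alternative that tested them, 257 without each library in turn and 172 in the fit of all 8 libraries. The named genes that changed sign without 1 library were not called in the comparison itself. Their log2 fold changes then were -0.124 to 0.015 (Col1a1), -0.05 to 0.032 (Sparc), -0.434 to 0.365 (Lef1), -0.009 to 0.021 (Cdkn1b) and -0.056 to 0.085 (Ccn4). Lef1 was also at -0.021 with voom and -0.001 with the replicate block. Low counts limit Atf3, Lef1, Plin4 and the genes present in 1 group, and the design with 2 libraries a group limits every call.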

Other observations

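Of 9 tested chondrocyte markers 6 were lower and 1 higher (median -0.56), and 2 and 1 in the fit of all 8 libraries. Sox9, the lead factor of cartilage, had 124 and 133 CPM in Brd and 178 and 166 CPM in control (-0.42, edgeR adjusted p = 6.75e-10, and 0.149 in the fit of all 8 libraries). Its partners Sox6 (-0.79) and Sox5 (-0.55) and the matrix gene Matn3 (-0.92) fell, whereas Col2a1 was not called (-0.034) and Col11a2 rose (1.28). In retinoic acid metabolism 4 of 10 genes were higher and 3 lower, but without any 1 library 1 to 2 were higher (1 without control replicate 1 or 2), and in the fit of all 8 libraries 1. The synthesis genes Aldh1a1 (-1.33) and Aldh1a3 (-1.84) and the degrading enzyme Cyp26b1 (-0.67) fell. Dhrs3, which returns retinal to retinol, had 50.4 and 47.6 CPM in Brd and 16.9 and 19.3 CPM in control, higher with no overlap (1.44, edgeR adjusted p = 6.71e-18). Of 14 chemokines and inflammatory mediators 6 were lower and 2 higher, with Hp (haptoglobin, -3.65), the complement gene C3 (-2.25, from -2.93 without Brd replicate 1 to -1.78 without Brd replicate 2), Tnfaip3 (-0.96), Cx3cl1 (-0.76) and Ptgs2 (-0.75) lower and Cxcl12 (0.29) higher. Of 21 interferon-stimulated genes 3 (14.3%) were higher and 5 (23.8%) lower, near the 19.9% and 20.1% of all tested genes. Without 1 library 0 to 3 were higher (0 without Brd replicate 2 or control replicate 1), and the fit of all 8 libraries called 0 of the 21 (2 at an unadjusted p under 0.05). The clock gene Bhlhe40 had 23.3 and 25.1 CPM in Brd and 61.6 and 57.5 CPM in control (-1.30), and 5 of 15 clock genes were lower and 2 higher, with 1 lower and 0 higher in the fit of all 8 libraries.

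Lysosome and autophagy genes were more often higher, with 15 of 27 (55.6%) up and 2 (7.41%) down and a median of 0.15, although the fit of all 8 libraries called 2 of them. Ctsl, cathepsin L, had 118 and 111 CPM in Brd and 78.7 and 79.5 CPM in control (0.54). Map1lc3b, an autophagosome protein that overlaps Zcchc14 (0.83), Npc2 (0.31) and Lamp1 (0.26) rose too. Heat shock genes split, with 7 of 16 higher and 5 lower, and 2 each in the fit of all 8 libraries. Hsph1 rose (0.71) and Cryab, the small heat shock protein αB-crystallin, fell (-0.75). Hspa1a and Hspa1b, which align over 2201 nt at 99.2% identity and are uncertain, fell by 1.12 and 1.03. In the fit of all 8 libraries Hspa1a was not called (edgeR adjusted p = 0.155). Of 29 genes of the amino acid response and ER stress 10 were higher, with Trib3 (0.71) and Ddit3, CHOP (0.48), among them, and 9 were lower. In the fit of all 8 libraries 1 was higher and 0 lower, and Ddit3 was not called (edgeR adjusted p = 0.16). Of 51 cytosolic ribosomal protein genes, many of which share sequence with pseudogenes, 13 (25.5%) were lower, near the 20.1% of all tested genes, and 1 higher. Without 1 library 7 to 10 were lower (7 without control replicate 1 or 2), and in the fit of all 8 libraries 0 (2 at an unadjusted p under 0.05). Of the 13 mitochondrially encoded genes of oxidative phosphorylation 6 were slightly higher and 1 lower. Several of the 13 share sequence with other counted genes. In the fit of all 8 libraries 0 of them were called (0 at an unadjusted p under 0.05).

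Few markers of other cell types passed the filter on low counts. S100b, a glial and cartilage marker, had 13.9 and 12.8 CPM in Brd and 40.2 and 42.0 CPM in control (-1.63), and Tubb3, a neuronal tubulin, had 18.5 and 16.4 CPM in Brd and 8.73 and 9.47 CPM in control (0.94). Of 5 tested neuronal and glial markers 2 were higher and 3 lower (1 lower without Brd replicate 1 or control replicate 1), with Gfap and Sox10 at 0. Of 4 macrophage and osteoclast markers 1 was higher and 2 lower, among them Ctsk, cathepsin K (-0.40). Of 2 adipocyte markers Cebpa was lower (-0.77) and Plin4, at low counts, was called higher, a call that ended without each library in turn (edgeR adjusted p = 0.0633 to 0.337). The skeletal muscle marker tested, Acta1, was higher (0.80).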
